A study of Rattus norvegicus with 12 samples.

Results

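Lipoprotein lipase, the secreted enzyme that frees fatty acids from circulating triglyceride, was examined together with the genes that process, anchor, inhibit or complement it. Of the 7 genes listed, namely Lpl, Lipg, Angptl4, Angptl2, Gpihbp1, Vldlr and Lmf1, 6 had a probe set whose platform annotation gave that gene symbol alone, and each of the 6 had 1 such probe set. They were 6 of 14324 genes and 6 of 27342 probe sets on the array. Lmf1, which encodes an endoplasmic reticulum protein needed to fold the lipase, had none and was not analysed here.

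The measurements came from Affymetrix arrays of total RNA, 1 array per culture. Heart cells were isolated by enzymatic digestion from Sprague-Dawley rat pups 2 days old, plated as monolayers and cultured for 3 days. The control group then received the vehicle, 0.1% DMSO, for 3 days (6 cultures). The DEHP group received 50 µg/mL of DEHP in the same vehicle for 3 days (6 cultures). DEHP, di(2-ethylhexyl) phthalate, is a plasticizer of flexible polyvinyl chloride such as medical tubing. All cells came from 1 litter, so the tests measure the spread between cultures and arrays and not between litters. The comparison asked how the RNA of these genes differed after exposure to DEHP at a concentration named as clinically relevant in the series title.

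Heart muscle burns fatty acids, and lipoprotein lipase made by cardiomyocytes is a main source of them. The enzyme is folded with the help of LMF1, secreted, and carried by GPIHBP1 of capillary endothelial cells to the vessel lumen, where it hydrolyses triglyceride-rich lipoproteins. ANGPTL4 inactivates the enzyme, the VLDL receptor takes up remnant particles and fatty acids close to the lipase, and endothelial lipase, the product of Lipg, is a related enzyme that acts mainly on phospholipids of high-density lipoproteins. Angptl4, Lpl and Vldlr are textbook targets of the PPAR family of lipid-sensing nuclear receptors, and metabolites of DEHP are textbook PPAR agonists.

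The bases before the transcription start of the members that passed the test are shown because these genes moved in the same arrays, Angptl4 and Lipg upward and Vldlr downward. RefSeq promoter entries of the build GRCr8 matched 5 of the 7 genes by symbol, namely Angptl4, Lipg, Vldlr, Angptl2 and Lmf1. The entries for Lpl and Gpihbp1 were not in the table used here. The windows lie at chr7:15258682-15258931 on the minus strand for Angptl4, at chr18:70811260-70811509 on the minus strand for Lipg, and at chr1:234240436-234240685 on the plus strand for Vldlr. Each is written 5′ to 3′ along the gene and ends at the base before the annotated start. Capitals mark matches on either strand to TATAAA, the TATA box, or to ACGTG, the core letters bound by hypoxia-inducible and E-box factors.
Angptl4: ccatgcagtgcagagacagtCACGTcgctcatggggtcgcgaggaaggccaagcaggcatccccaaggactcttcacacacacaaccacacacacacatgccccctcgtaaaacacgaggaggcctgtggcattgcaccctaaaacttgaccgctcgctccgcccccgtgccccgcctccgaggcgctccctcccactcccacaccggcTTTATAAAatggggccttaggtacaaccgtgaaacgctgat
Lipg: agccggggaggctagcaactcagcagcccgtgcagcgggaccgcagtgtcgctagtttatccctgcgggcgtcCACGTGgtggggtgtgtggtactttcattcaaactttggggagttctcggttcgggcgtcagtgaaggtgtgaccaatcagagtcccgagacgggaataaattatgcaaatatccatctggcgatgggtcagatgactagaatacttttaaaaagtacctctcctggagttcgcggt
Vldlr: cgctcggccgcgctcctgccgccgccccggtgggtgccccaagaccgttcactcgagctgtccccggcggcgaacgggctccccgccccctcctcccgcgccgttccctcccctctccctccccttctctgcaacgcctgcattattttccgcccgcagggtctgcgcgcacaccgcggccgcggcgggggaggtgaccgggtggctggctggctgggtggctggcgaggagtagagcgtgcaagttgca

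The Angptl4 window held TATAAA on both strands, the forward match running from 39 to 34 bases before the start and overlapping the reverse match. It also held ACGTG once, on the reverse strand. In the Lipg window the 2 ACGTG matches overlapped as the palindrome CACGTG, 177 to 172 bases before the start. The Vldlr window, with 73.6% G and C against a median of 51.2% over all entries, held neither motif. Among 33469 windows of 250 bases, 12.9% held TATAAA and 16.6% held ACGTG on either strand. The half-site of PPAR response elements, AGGTCA, had no match on either strand in the windows of Angptl4, Lipg, Vldlr, Angptl2 and Lmf1, and 14.1% of all windows held it. The closest stretch to the full element AGGTCANAGGTCA differed at 4 of its 12 fixed letters in Angptl4, Lipg and Vldlr, and 74.5% of all windows held a stretch at least as close. These matches describe letters in the windows and not binding. Bases outside the windows were not searched, so a missing match says nothing of elements elsewhere in these genes.

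The deposited values are ratios, and the median of every probe set over the 12 arrays was 1, so a log2 ratio gives each array relative to that gene's own median and says nothing of how abundant the RNA was. Values of different genes are therefore compared only as changes. Control replicate 5 and DEHP replicate 6 stood apart from the other 10 arrays, with SDs of all log2 ratios of 0.37 and 0.27 against 0.15 to 0.19. The members are given with all arrays and, where it matters, without these.

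Under DEHP, Angptl4 rose 3.07-fold and Lipg 2.76-fold, Vldlr fell, and Lpl, Gpihbp1 and Angptl2 did not pass the test over all arrays. Without DEHP replicate 6 the rises were 2.47-fold and 2.44-fold, and Lpl and Gpihbp1 passed. With limma over all 27342 probe sets and Benjamini-Hochberg adjustment, 2 of the 6 members were higher, 1 was lower and 3 did not pass an adjusted p of 0.05. Among all 14324 genes 14.4% were higher and 10.2% lower by the same rule. The control and DEHP values did not overlap in Angptl4, Lipg and Vldlr, 2 upward and 1 downward, as was the case in 10% of all genes upward and 6.88% downward. The median log2 fold of the 6 members was 0.22, beside −0.02 over all genes. The members' median was 0.34 without DEHP replicate 6, a comparison whose median over all genes is not given here. In these mixed cultures, fewer cells of a type and less RNA per cell cannot be told apart.

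**Figure D1:**
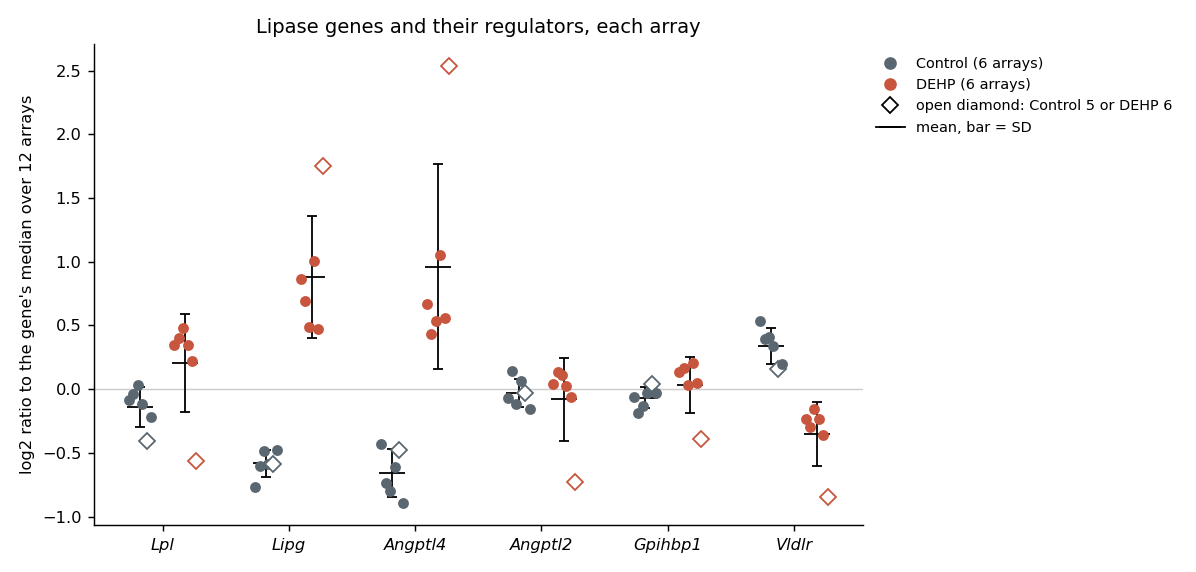
Log2 ratio of each of the 6 measured genes on every array (y axis, relative to the gene's median over 12 arrays) in 6 control and 6 DEHP cultures, with the group mean and SD. Angptl4 and Lipg lay higher and Vldlr lower in all DEHP arrays, and DEHP replicate 6, an open diamond, lay farthest from the other DEHP arrays in every gene.

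The enzyme itself comes first. Lpl had log2 ratios of −0.08, −0.04, 0.04, −0.12, −0.41 and −0.22 in control replicates 1 to 6. In DEHP replicates 1 to 6 it had 0.35, 0.40, 0.48, 0.34, 0.22 and −0.57. Of the DEHP arrays 5 lay above every control, while DEHP replicate 6 lay below every control, so the groups overlapped. The log2 fold was 0.34 ± 0.15 (SE, n = 6 per group), a 1.27-fold higher mean, with an adjusted limma p of 0.17 and a 95% confidence interval of 0.0076 to 0.68. Without DEHP replicate 6 the log2 fold was 0.50 ± 0.08, or 1.41-fold, with an adjusted limma p of 0.000565. Without both arrays that stood apart it was 0.44 ± 0.06, with an adjusted limma p of 0.00013. Lpl was thus not called over all arrays and called once DEHP replicate 6 was left out.

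Lipg, the gene of endothelial lipase, rose. Its control log2 ratios were −0.77, −0.60, −0.48, −0.59, −0.59 and −0.48 in replicates 1 to 6. The DEHP arrays had 0.86, 0.69, 0.49, 1.003, 0.48 and 1.76. All DEHP values lay above all controls, and DEHP replicate 6 was the highest. The group means were −0.58 ± 0.11 for control and 0.88 ± 0.48 for DEHP (SD, n = 6 arrays), a log2 fold of 1.46 ± 0.18 (SE) or 2.76-fold, with an adjusted limma p of 7.9e-05. By size of rise Lipg ranked 28 among 14324 genes. Without DEHP replicate 6 the log2 fold was 1.29 ± 0.10.

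Angptl4, the gene of the secreted inhibitor of lipoprotein lipase, had the largest change of the 6 and rank 19 among all genes. Control replicates 1 to 6 had −0.43, −0.74, −0.80, −0.61, −0.47 and −0.89. DEHP replicates 1 to 6 had 0.67, 0.43, 0.53, 1.05, 0.55 and 2.54. The groups did not overlap, and DEHP replicate 6 lay well above the 0.43 to 1.05 of the other 5 DEHP arrays. Control arrays averaged −0.66 ± 0.18 and DEHP arrays 0.96 ± 0.80 (SD, n = 6 arrays). The log2 fold was 1.62 ± 0.30 (SE), or 3.07-fold, with an adjusted limma p of 0.0019. Without DEHP replicate 6 it was 1.31 ± 0.12, or 2.47-fold, with an adjusted limma p of 7.3e-06. The spread of Angptl4 among DEHP cultures was 4.34 times that among controls, and 99.9% of all genes had a smaller SD in the DEHP arrays. The spread was 1.31 times that among controls without DEHP replicate 6, and 98.4% of genes then had a smaller SD. A wide spread was not particular to Angptl4. That of Lipg was 4.53 times the spread among controls, with a smaller SD in 99.2% of genes. Without DEHP replicate 6 it was 2.20 times, with a smaller SD in 97.8% of genes.

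Angptl2 encodes a relative of ANGPTL4 that is known for roles in inflammation and not as an inhibitor of the lipase. It did not pass, with a log2 fold of −0.05 ± 0.13 (SE), an adjusted limma p of 0.82 and a 95% confidence interval of −0.33 to 0.23. Control arrays spanned −0.16 to 0.14 with a median of −0.05, and the DEHP arrays other than replicate 6 spanned −0.06 to 0.13. DEHP replicate 6 was at −0.73. Without it the log2 fold was 0.08 ± 0.06, opposite in sign, with an adjusted limma p of 0.48.

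Gpihbp1, the gene of the endothelial anchor, had control values of −0.06, −0.19, −0.13, −0.03, 0.04 and −0.03 in replicates 1 to 6. Under DEHP it had 0.14, 0.17, 0.03, 0.21, 0.05 and −0.39. Of the DEHP arrays 4 lay above every control and DEHP replicate 6 lay below every control. The log2 fold was 0.10 ± 0.09 (SE), with an adjusted limma p of 0.51 and a 95% confidence interval of −0.09 to 0.29. Without DEHP replicate 6 it was 0.19 ± 0.05, or 1.14-fold, with an adjusted limma p of 0.023, and without both arrays that stood apart 0.21 ± 0.05, with an adjusted limma p of 0.0072.

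Vldlr, the gene of the receptor for very-low-density lipoprotein, fell. Control replicates 1 to 6 had 0.54, 0.39, 0.41, 0.34, 0.16 and 0.20. DEHP replicates 1 to 6 had −0.24, −0.29, −0.16, −0.24, −0.36 and −0.85. Every DEHP value lay below every control, and DEHP replicate 6 was the lowest. Control arrays averaged 0.34 ± 0.14 and DEHP arrays −0.36 ± 0.25 (SD, n = 6 arrays), so the gene was 1.62-fold lower, with a log2 fold of −0.69 ± 0.11 (SE) and an adjusted limma p of 0.00051. Vldlr ranked 305 by size of fall among all genes, and without DEHP replicate 6 its log2 fold was −0.60 ± 0.07.

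**Figure D2:**
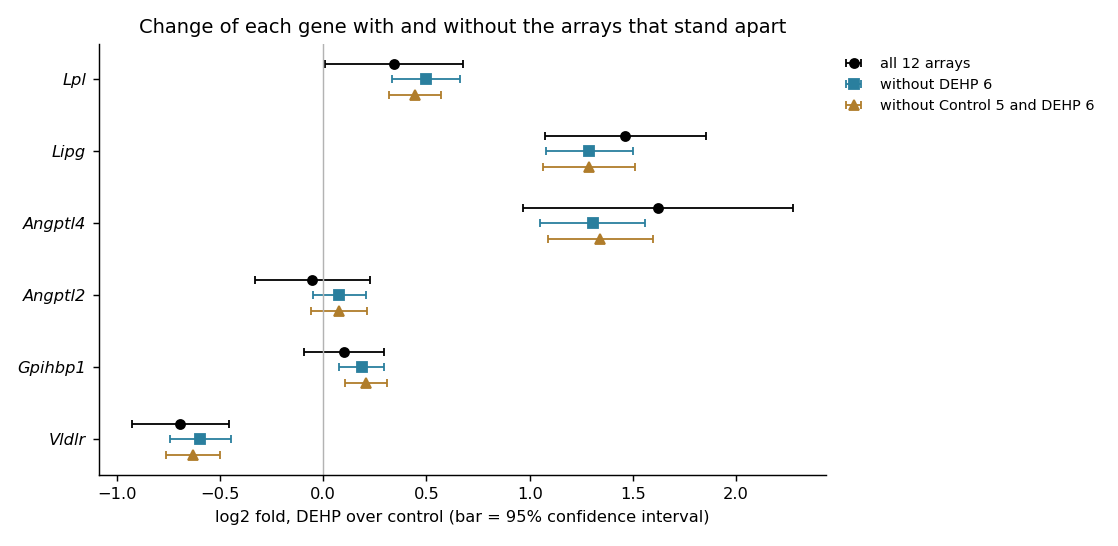
Log2 fold of DEHP over control for each gene (points) with the 95% confidence interval (bars), over all 12 arrays, without DEHP replicate 6, and without Control replicate 5 and DEHP replicate 6. Lipg, Angptl4 and Vldlr kept their direction, the interval of Lpl was 0.0076 to 0.68 with and 0.33 to 0.66 without DEHP replicate 6, and that of Gpihbp1 no longer included 0.

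Leaving out DEHP replicate 6 thus raised the number of members higher under DEHP from 2 to 4, the added genes being Lpl and Gpihbp1, with Vldlr the 1 lower and Angptl2 the 1 that did not pass. In that comparison 14% of all genes were higher and 9.77% lower. Without both arrays the counts were again 4 and 1, where 15.7% and 12.7% of all genes were called. Within DEHP replicate 6, Angptl4 and Lipg were at their highest of the 12 arrays while Lpl, Gpihbp1, Angptl2 and Vldlr were at their lowest. Control replicate 5 had the lowest Lpl and Vldlr among controls and the highest Gpihbp1.

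The change of the inhibitor exceeded that of the enzyme. Taken within each array, the log2 ratio of Angptl4 minus that of Lpl was −0.35, −0.70, −0.84, −0.49, −0.06 and −0.67 in control replicates 1 to 6. It was 0.32, 0.03, 0.05, 0.71, 0.33 and 3.10 in DEHP replicates 1 to 6. All DEHP arrays lay above all controls, the closest being Control replicate 5 at −0.06 and DEHP replicate 2 at 0.03. The mean difference between groups was 1.28, a 2.42-fold shift of Angptl4 relative to Lpl, with a two-sided exact permutation p of 0.0022, the smallest that 6 against 6 arrays allow. Without DEHP replicate 6 the shift was 0.81, with an exact permutation p of 0.0043.

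The related lipases also changed by unequal amounts. Lipg minus Lpl was −0.68 to −0.18 in controls and 0.01 to 2.32 under DEHP, with no overlap. The mean difference between groups was 1.12, or 2.17-fold, with a two-sided exact permutation p of 0.0022. Without DEHP replicate 6, whose value of 2.32 stood above the 0.01 to 0.66 of the other DEHP arrays, the shift was 0.79.

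**Figure D3:**
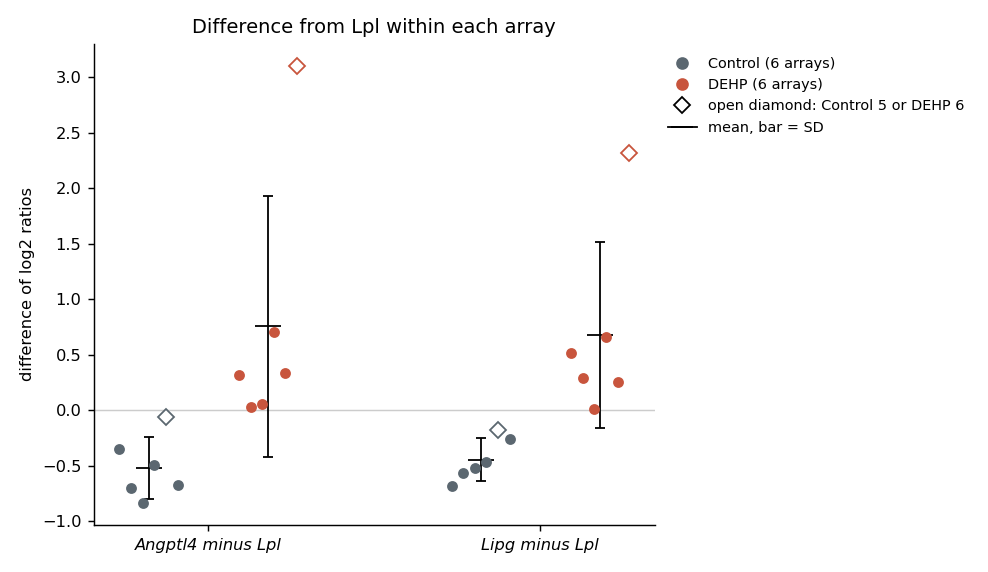
Difference between the log2 ratios of Angptl4 or Lipg and that of Lpl within each array (y axis), in 6 control and 6 DEHP cultures, with mean and SD. All DEHP arrays lay above all control arrays in both differences, and DEHP replicate 6 was highest at 3.10 and 2.32.

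Genes whose values followed a member most closely over the 12 arrays were taken by Pearson correlation as a description. For Angptl4 these were Pde9a, a phosphodiesterase that hydrolyses cyclic GMP (r = 0.99), Lca5, a cilium protein gene (0.98), and Gbp5, an interferon-inducible GTPase gene (0.98). For Lipg they were the carboxylesterase gene Ces1f (0.98), the ubiquitin ligase gene Lnx1 (0.98) and Vcam1, an endothelial adhesion molecule gene (0.98). For Vldlr they were Gpc4, a heparan sulfate proteoglycan gene (0.99), Cyth3 (0.99) and Hacd4 (0.99). All share the same arrays and the step between the groups, and without the 2 arrays that stood apart the lowest of these r was 0.967, that of Lca5 with Angptl4.

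On deviations from the group means, which leave out that step, the closest to Angptl4 were Gbp2 (0.98), the glucose transporter gene Slc2a3 (0.96) and the collagenase gene Mmp13 (0.96). Those closest to Lipg were Sft2d1, Slc20a1 and C16h8orf48, each at 0.96. Gpc4 (0.97) was again closest to Vldlr, before Ogn (0.96) and Pik3r1 (0.96). Without the 2 arrays that stood apart these values were 0.79 to 0.92. The group means subtracted were still those over all arrays, so these values can still hold a step made by the 2 arrays. How far the likeness rested on those arrays therefore cannot be read from them.

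Other genes of the pathway were counted over 9 lists with 71 measured genes of 86 listed. Of the 71, 18 were higher, 6 were lower and 47 did not pass, with a median log2 fold of 0.06. Over all genes 14.4% were higher and 10.2% lower, with a median of −0.02. Of the 18, 6 belonged to the list of genes that respond to PPAR agonists. The shares over all genes also stand beside the count of each list below, and no list was tested as a set. Among other angiopoietin-like genes, 1 of 3 measured was higher and 0 were lower by limma, also at an unadjusted p under 0.05. The gene that rose was Angptl8, whose product binds ANGPTL4 and tunes its hold on the lipase. Its log2 fold was 1.21 ± 0.09 (SE, adjusted limma p of 1.2e-06), with controls at −0.87 to −0.41 and DEHP arrays at 0.41 to 0.84. In DEHP replicate 6, where Angptl4 was highest, Angptl8 was the lowest of the DEHP arrays at 0.41.

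Among apolipoproteins, which dock particles to the lipase and to receptors, 1 of 8 was higher and 0 were lower by limma, also at an unadjusted p under 0.05. The 1 was Apoe, the ligand through which the VLDL receptor takes up remnants, at 1.20 ± 0.09 (adjusted limma p of 1.2e-06). Apoc2, the activator that lipoprotein lipase needs, had a log2 fold of −0.03 ± 0.04 (adjusted limma p of 0.64). Of 15 genes of the LDL receptor family, its partners and other lipoprotein receptors, 4 were higher and 1, Mylip, was lower. Without DEHP replicate 6, 3 of them were higher. Cd36, the receptor that takes up fatty acids freed by the lipase, rose 2.30-fold (1.20 ± 0.16), and the remnant receptor gene Lrp1 rose 1.50-fold (0.59 ± 0.04). Mylip, whose ubiquitin ligase marks the LDL and VLDL receptors for breakdown, fell by 0.40 ± 0.06, and its call was lost after cyclic loess normalization (−0.31, adjusted limma p of 0.090).

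Heparan sulfate proteoglycans hold the lipase at the cell surface before GPIHBP1 takes it. Of 8 genes of this list, which also holds the heparanase gene Hpse, 4 fell and 0 rose by limma, where 1 was higher at an unadjusted p under 0.05, among them Gpc4 (−0.95 ± 0.13), Gpc3 (−0.85 ± 0.12) and Sdc2 (−0.56 ± 0.08). Of 11 genes of folding and export, 1 rose and 0 fell by limma, where 1 was lower at an unadjusted p under 0.05, and the rise was that of P4hb, a disulfide isomerase gene, at 0.27 ± 0.05. Sel1l, the partner of LMF1-folded lipase on its way out of the endoplasmic reticulum, had a log2 fold of 0.07 ± 0.06 (adjusted limma p of 0.52). Proprotein convertases cut both the lipase and ANGPTL4, and 2 of 7 were higher and 1 lower. Pcsk5 rose (0.69 ± 0.10), Pcsk7 rose (0.26 ± 0.05) and Pcsk6 fell (−0.45 ± 0.09), while Furin had 0.10 ± 0.06 (adjusted limma p of 0.29). Of 7 other lipase genes 2 rose, namely Pnpla2, the adipose triglyceride lipase gene (0.79 ± 0.08), and Lipe, the hormone-sensitive lipase gene (0.18 ± 0.06), and 0 fell by limma, the latter also at an unadjusted p under 0.05.

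**Figure D4:**
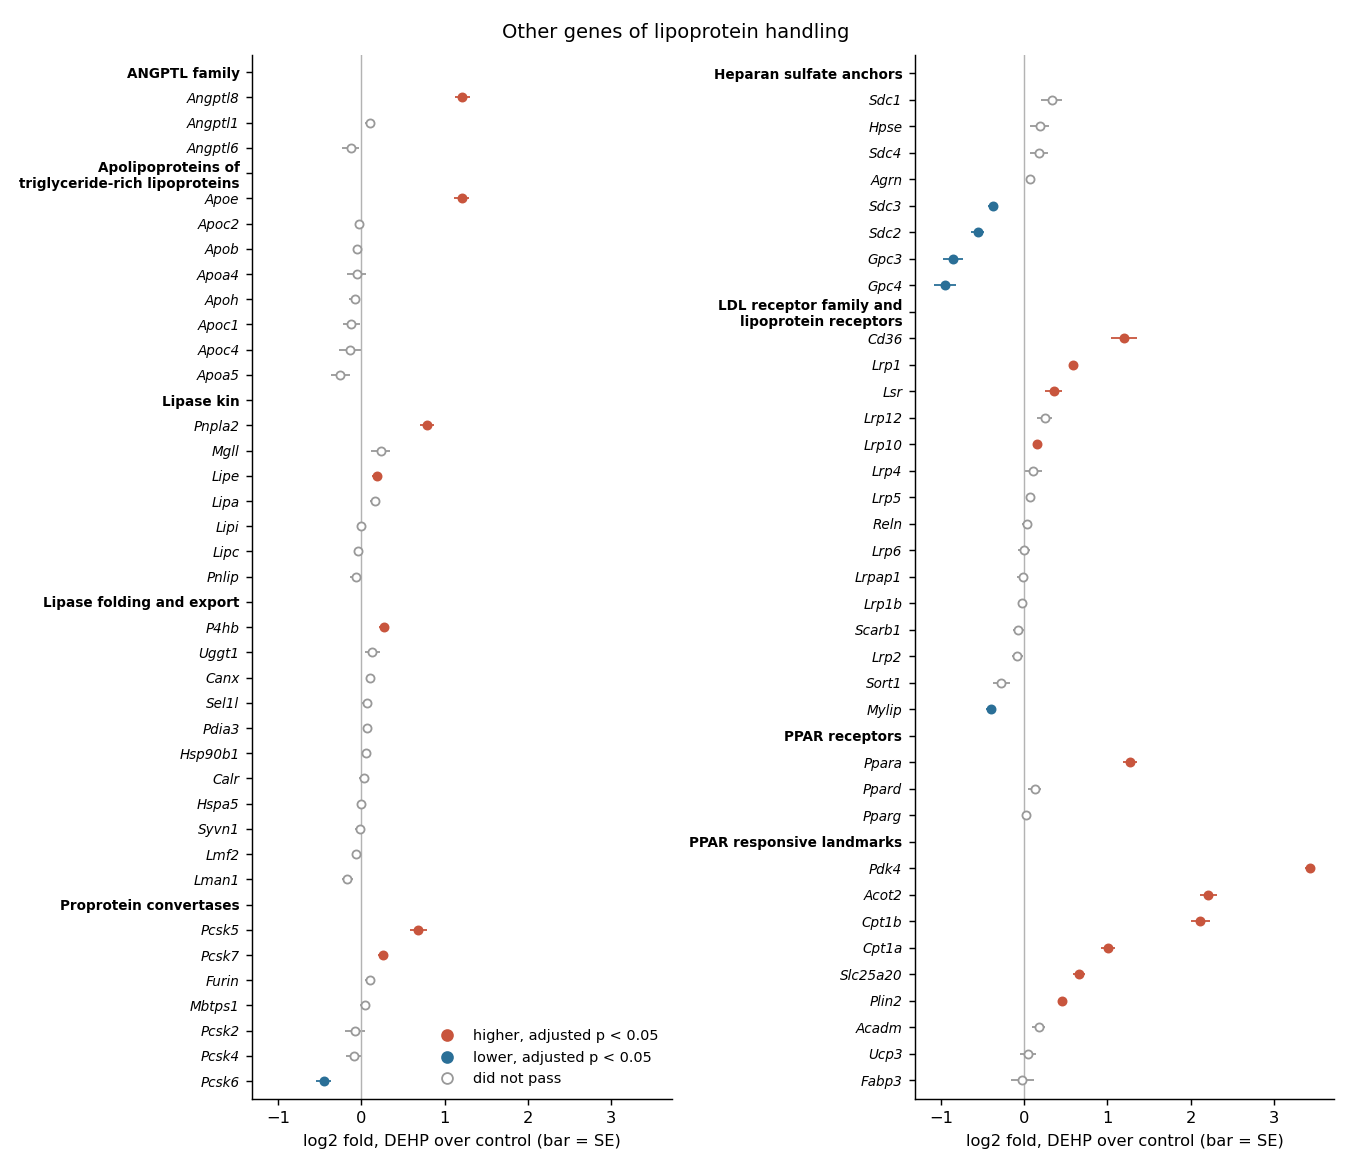
Log2 fold of DEHP over control (x axis, bars are SE) for 71 genes of lipoprotein handling and PPAR signalling in 9 lists. Filled points passed an adjusted limma p of 0.05, 18 higher and 6 lower, and open points did not. Of all genes 14.4% were higher and 10.2% lower.

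Of the PPAR genes, Ppara was 2.42-fold higher (1.27 ± 0.08), and Ppard (0.13 ± 0.08) and Pparg (0.02 ± 0.04) did not pass, with adjusted limma p of 0.31 and 0.81. Among 9 genes that respond to PPAR agonists in muscle, 6 were higher and 0 lower by limma, the latter also at an unadjusted p under 0.05, led by Pdk4 (3.43 ± 0.06), Acot2 (2.21 ± 0.10) and Cpt1b (2.12 ± 0.11). Pdk4 in DEHP replicate 6 was 1.61, within the 1.55 to 1.74 of the other DEHP arrays, whereas Angptl4 in that array was 2.54 against at most 1.05. Acot2, Plin2 and Slc25a20 of the list also lay within the range of the other DEHP arrays there. Cpt1b and Ucp3 lay just above that range, and Cpt1a, Acadm and Fabp3 below it. Fabp3 was at −0.71 against −0.015 to 0.27, and Cpt1a at 0.35 against 0.47 to 0.64. The list was chosen with its earlier results known and is no independent evidence of its direction.

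Gpihbp1 and Lipg are endothelial genes, and lipoprotein lipase is also made by fat cells and macrophages, so marker lists of these cells are given beside them. Of 11 endothelial markers 5 were higher, 1 was lower and 5 did not pass. Among all genes 14.4% were higher and 10.2% lower, shares that stand beside the count of every marker list here and below. Their mean log2 ratio was −0.20 to 0.05 in controls and 0.10 to 0.36 in the DEHP arrays other than replicate 6, which had −0.24. Gpihbp1 and the endothelial mean were both lowest in DEHP replicate 6, whereas Lipg was highest there. Of 9 adipocyte markers 1, Fabp4, was higher and 0 were lower by limma, the latter also at an unadjusted p under 0.05, with list means of −0.12 to 0.20 in controls and −0.05 to 0.15 under DEHP. Of 10 macrophage markers 2 were higher and 2 lower, with means of −0.23 to 0.17 and −0.11 to 0.09.

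Cardiomyocyte markers had 3 rises and 5 falls among 12, and their mean was −0.40 in DEHP replicate 6 while the remaining DEHP arrays ran from −0.01 to 0.20. Fibroblast markers had 3 rises and 8 falls among 12, with means of −0.012 to 0.14 in controls and −0.34 to −0.042 under DEHP, lowest in the same array. All 7 smooth muscle markers fell, with means of 0.60 to 0.78 in controls and −1.14 to −0.60 under DEHP. Because the ratios hold no levels, whether a marker was near 0 could not be read from them. The part of these cell types in the changes of Lpl, Lipg, Angptl4, Gpihbp1 and Vldlr was not tested.

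**Figure D5:**
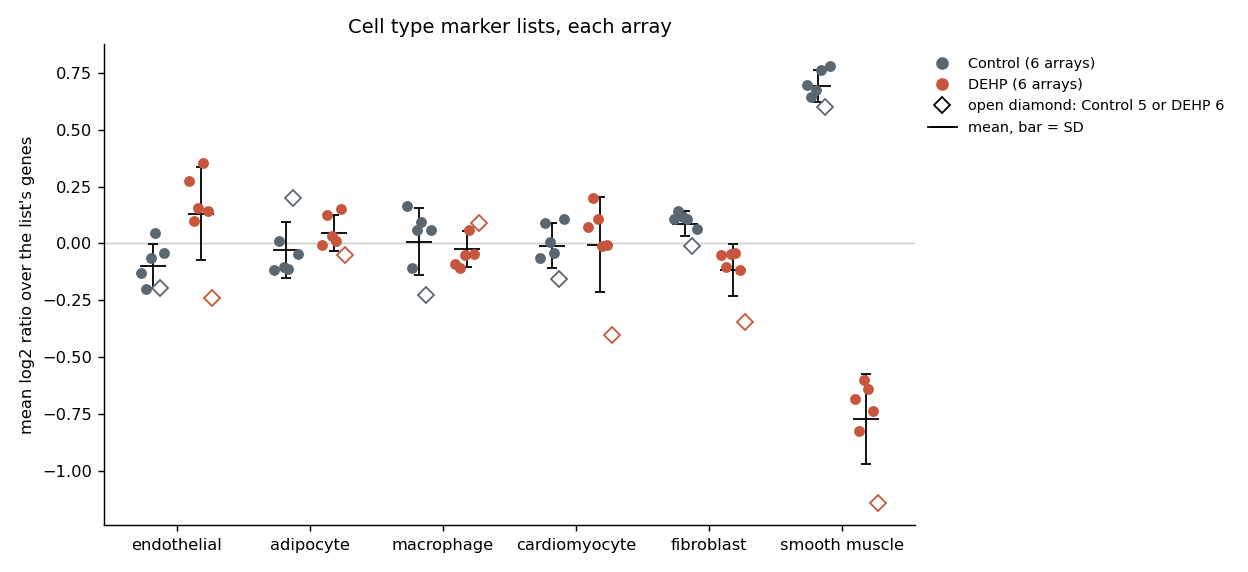
Mean log2 ratio over the genes of each cell type marker list (y axis) on every array, in 6 control and 6 DEHP cultures, with the group mean and SD. Smooth muscle and fibroblast marker means did not overlap between the groups, and DEHP replicate 6 had the lowest endothelial, cardiomyocyte, fibroblast and smooth muscle means.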

How the data were processed

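RNA of 12 cultures was measured on 12 arrays. RMA, with no version given, is the tool named in the submitters' processing notes. The deposited values are linear ratios. The log2 of each ratio was used as it stood, and the median of log2 values over the 12 arrays was within 5.0e-07 of 0 for every probe set. Genome build and annotation used by the authors are not given in the sources used here.

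Gene names came from the platform annotation, where 15097 had 1 symbol, 323 several and 11922 none, and Entrez identifiers matched RefSeq of GRCr8 in 15067 cases with 0 symbols changed. Of 499 genes with several probe sets the lowest-numbered was taken, and each member has 1. DEHP was compared with control by limma 3.58.1 in R 4.3.3 (lmFit, eBayes, two-sided, Benjamini-Hochberg over 27342 probe sets, threshold 0.05). Folds are DEHP over control. Differences within arrays were compared by exact permutation over 924 splits. Brightness over background is not held in the ratios, so no gene was left out for weak signal. Precision is limited by the number of arrays. Both procedures were tested on simulated data drawn with independent normal noise. The simulations held no outlying array, so they do not cover arrays such as Control replicate 5 or DEHP replicate 6.

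The members, lists, tests and alternatives were chosen with earlier results of these data known. Beside all members, each list contributes up to 3 passing genes, those of smallest p, and a set of landmarks is named. Fabp4, the marker named beside these, was chosen after its value was seen. Alternatives were quantile, median and cyclic loess normalization, array weights, robust eBayes, the replicate number as a block, single-symbol probe sets alone, the mean of a gene's probe sets, a threshold of 0.01, and arrays left out singly or, for Control replicate 5 and DEHP replicate 6, together. Promoter windows of 250 bases were searched by exact match.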

Additional observations from a re-analysis of the deposited data

Results flagged for a closer look

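Within a group of 6 arrays, a value was marked when its gap to the nearest other value was over 0.625 of the group's range, which chance gives in about 1 of 20 groups. Of 74 groups checked over the members, differences, named pathway genes and marker lists, 18 were marked, 14 of them for DEHP replicate 6, 3 for Control replicate 5 and 1 for Control replicate 3. They share arrays and are not independent. Among members, DEHP replicate 6 was set apart in Lpl (−0.57), Angptl4 (2.54), Angptl2 (−0.73), Gpihbp1 (−0.39) and Vldlr (−0.85), and in Angptl4 minus Lpl (3.10) and Lipg minus Lpl (2.32). Lipg itself was not marked.

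Among pathway genes the same array was set apart in Apoe (0.33 against 0.79 to 0.92 in the other DEHP arrays), P4hb (0.29), Pcsk5 (0.022 against 0.51 to 0.64), Sdc2 (−0.72) and Gpc4 (−1.12), and in the means of the cardiomyocyte (−0.40) and fibroblast markers (−0.34). Control replicate 5 was set apart in Pnpla2 (−0.63), P4hb (−0.32) and Sel1l (−0.31), and Control replicate 3 in Sdc2 (0.27).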

How the results depend on the processing

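Lipg, Angptl4 and Vldlr kept their direction and passed under all 21 alternatives, at log2 folds of 1.29 to 1.54, 1.31 to 1.73 and −0.73 to −0.60. Lpl was higher under all 21, but passed only with array weights (0.43), without Control replicate 5 and DEHP replicate 6 (0.44), and without DEHP replicate 6, with single arrays left out giving 0.29 to 0.50. Gpihbp1 passed without these 2 arrays (0.21) and without DEHP replicate 6, with single arrays left out giving 0.065 to 0.19. Angptl2 turned upward without passing with array weights (0.011), without the 2 arrays (0.077) and without DEHP replicate 6, over a range of −0.096 to 0.077 with single arrays left out. The members higher numbered 4 without the 2 arrays and 2 to 4 with single arrays left out, and 1 was lower throughout.

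Replicate numbers are in the labels, and the deviations of same-numbered arrays had a positive r in all 6 pairs (0.072 to 0.77), but only 5 were over the 0.1 asked of every pair and 3 of 6 controls correlated best with their own number, so they were not taken as pairs. With the replicate block no member changed its call, Lpl having a log2 fold of 0.34 with an adjusted limma p of 0.064, and Angptl4 minus Lpl (1.28) had an exact sign-flip p of 0.031, the smallest that 6 pairs allow. Angptl4 minus Lpl ranged from 0.81 to 1.42 and Lipg minus Lpl from 0.79 to 1.25 over 17 alternatives, all with exact p under 0.05.

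Without the 2 arrays, higher genes numbered 4 in place of 2 among other lipases. Without them and after quantile normalization alike, lower genes of folding and export numbered 1 in place of 0, higher genes of the heparan sulfate list 1 in place of 0, and lower genes of the list of receptors and their partners 2 in place of 1. Higher genes of that receptor list numbered 3 without the 2 arrays and 5 after quantile normalization, in place of 4. Mylip had −0.31 after cyclic loess. No normalization moved the median of all genes by over 0.1. Signal over background is not held in the ratios, so weakly detected genes could not be set apart.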
